A study of Rattus norvegicus with 19 samples.

Results

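Nos1 encodes the neuronal nitric oxide synthase, and its single row (ENSRNOG00000001130) was followed among the 30560 genes of a count table from the paraventricular nucleus (PVN) of the hypothalamus. The row was found by its identifier, with no threshold on its values, though the gene was chosen with earlier results of these data known. Neither the table nor the reference tables used here pair the identifiers with symbols. The RNA came from bilateral PVN punches of rats aged 14 weeks, both males (4 Wistar, 5 SHR) and females (5 Wistar, 5 SHR). SHR (spontaneously hypertensive rat) is an inbred strain that becomes hypertensive without treatment, and Wistar is an outbred normotensive stock, so strain, breeding and blood pressure cannot be told apart in these groups. All rats had been anesthetized with ketamine and xylazine, implanted with a blood pressure transmitter and given gentamicin and carprofen, and the blood pressure of females was recorded in dioestrus.

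The neuronal synthase makes the gas nitric oxide from arginine when calcium-bound calmodulin activates it, and a PDZ domain anchors it near NMDA receptors at synapses. Nitric oxide then diffuses to neighbouring cells, where soluble guanylyl cyclase answers it with cyclic GMP. In the PVN the enzyme is found in magnocellular neurons, among them oxytocin cells, and in parvocellular neurons that project to autonomic centres, and nitric oxide there is known for restraining sympathetic outflow. A punch holds neurons, glia and vessels together, so fewer Nos1 neurons and less Nos1 RNA per neuron cannot be told apart. Defining markers of PVN neurons and of other cell types were not analysed here, for want of symbols. The sex labels were checked with Ddx3y, a Y-linked gene whose identifier the paper prints, which lay between 113 and 121 counts per 1000000 counts (CPM) in the males and reached at most 0.227 CPM in the females.

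Counts were summed over the whole gene, so they do not tell which of its alternative first exons was used. RefSeq lists 6 transcripts for rat Nos1 on chromosome 12, between Fbxo21 and Ksr2, and its promoter window lies inside the span of the gene, downstream of the most distal start. This window is printed because it holds the one start site given for the measured gene; no deposited value measures the promoter itself. It covers the 250 bases before and the first 50 bases of the transcript, at chr12:44371788-44372087 on the minus strand of the GRCr8 assembly (the counts were made on Rn7), and the capitals mark the cAMP response element TGACGTCA.

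Nos1 window: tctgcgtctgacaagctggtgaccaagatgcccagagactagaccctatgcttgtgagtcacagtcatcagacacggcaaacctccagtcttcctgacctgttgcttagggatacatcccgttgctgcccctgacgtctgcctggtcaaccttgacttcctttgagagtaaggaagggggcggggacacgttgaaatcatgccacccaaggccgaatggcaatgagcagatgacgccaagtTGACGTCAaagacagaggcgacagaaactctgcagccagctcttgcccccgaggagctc

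The element reads the same on both strands and begins 9 bases before the listed start. It was present in 1.83% of 33469 RefSeq promoter windows of this length. The shorter TGACG, searched on both strands, occurred 4 times in the window, of which 2 matches lie within the full element, and 21.2% of all windows held it. These matches describe letters only. In the same assembly 2 noncoding genes, LOC120095990 and LOC120095991, overlap the span of Nos1, and the strand setting of the counting is not given in the sources used here.

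Nos1 was well covered in every library. Total counts lay between 44943945 and 58793511 per library, and the Nos1 count lay between 858 and 2425. Levels are given below as CPM after TMM normalization, which scales libraries by the trimmed mean of their log ratios. Even numbers made up 73.9% of all counts from 1 to 100, as when both reads of a pair are counted, so counting intervals were computed for the number of pairs. They cover counting error only.

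**Figure D1:**
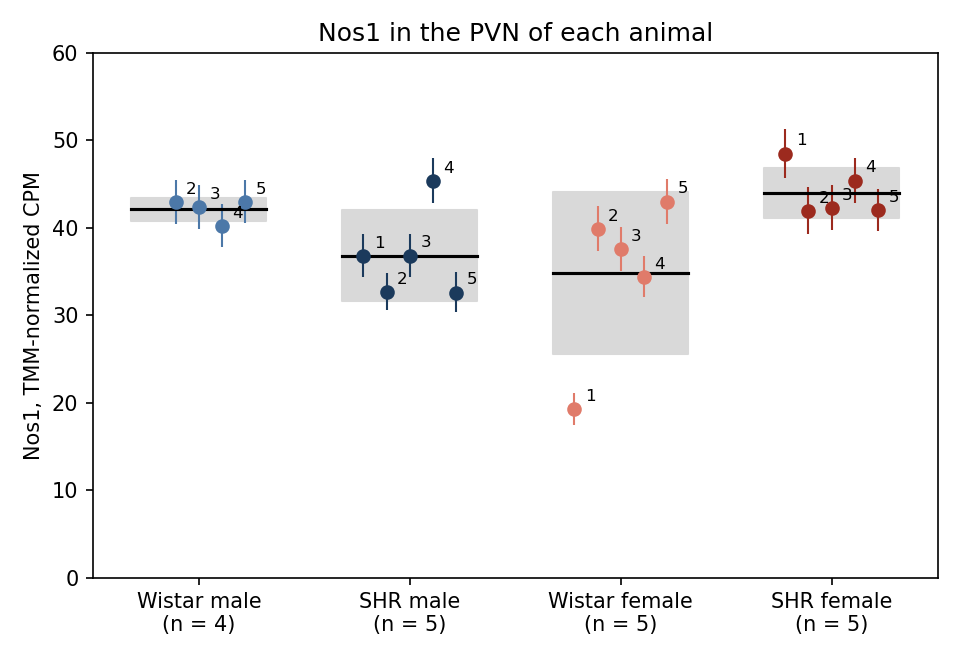
Nos1 in each animal, in TMM-normalized CPM on a linear axis from 0. Points are animals labelled with their replicate numbers, with 95% exact Poisson intervals for counted pairs, lines are group means and grey boxes are ± 1 SD (n = 4, 5, 5 and 5). Wistar female 1 lies at 19.2 CPM, below every other animal, and SHR male 4 at 45.3 CPM, above the other SHR males.

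In Wistar males, Nos1 was at 42.9, 42.3, 40.2 and 42.9 CPM in replicates 2, 3, 4 and 5, with a mean of 42.1 ± 1.28 (SD, n = 4). SHR males had 36.8, 32.7, 36.8, 45.3 and 32.6 CPM in replicates 1 to 5, a mean of 36.8 ± 5.19 (SD, n = 5). Of the SHR males, 4 lay below all Wistar males, and replicate 4 lay above all of them, so the groups overlapped.

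Wistar females had 19.2, 39.9, 37.5, 34.4 and 43.0 CPM in replicates 1 to 5, a mean of 34.8 ± 9.25 (SD, n = 5). SHR females had 48.5, 41.9, 42.3, 45.4 and 42.0 CPM, a mean of 44.0 ± 2.89 (SD, n = 5). The highest Wistar female lay within the range of the SHR females and the other Wistar females lay below it. The lowest, replicate 1, had a count of 858 and a 95% interval of 17.5 to 21.2 CPM, below the interval of 32.1 to 36.8 CPM of the next lowest Wistar female. These intervals leave out the spread between animals. By Dixon's test the gap from Wistar female 1 up to the next animal was 0.638 of its group's range. The gap from SHR male 4 down to the next animal was 0.669 of its group's range. Both ratios were taken on CPM and were under the 95% critical value of 0.71, so neither animal passed that test on CPM. On log2 CPM, used in the tests below, Wistar female 1 lay at 4.27, the next lowest at 5.11 and the highest at 5.43. There its gap is a larger part of the range, above that critical value. The outcome for Wistar female 1 thus depends on the scale.

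By their means the groups were ordered SHR females, Wistar males, SHR males and Wistar females. Neighbours in this order did not differ beyond their spread in two-sided exact permutation tests of log2 CPM. SHR females against Wistar males had p = 0.317 (exact), SHR males against Wistar males p = 0.0794 (exact), and SHR males against Wistar females p = 0.770 (exact). The order of the lowest pair rests on Wistar female 1, without which the Wistar female mean was 38.7 CPM, above that of SHR males. By medians, Wistar males (42.6 CPM) came before SHR females (42.3 CPM), and Wistar females (37.5 CPM) before SHR males (36.8 CPM).

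The first question of the design was whether Nos1 differs between the strains in males. Its mean was lower in SHR males, and 4 of the 20 SHR and Wistar pairs had the SHR animal higher, all of them with replicate 4. The log2 fold change was -0.19 (SE 0.09, 95% interval -0.39 to -0.00046), or 0.875-fold. The unadjusted p was 0.0495 and the adjusted p 0.174 (edgeR's quasi-likelihood test, Benjamini-Hochberg adjusted over all genes tested), so it did not pass the threshold. In this comparison 12% of 17461 genes tested (2102 genes) were called at an adjusted p under 0.05. The exact permutation test over 126 splits gave p = 0.0794, and 0.143 after Benjamini-Hochberg adjustment over the 6 pairs of groups; the smallest p it can give is 0.0159.

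The male result depended on SHR male 4. Without it the SHR males lay between 32.6 and 36.8 CPM, all below the Wistar males. That separation follows from the choice of this animal, which was singled out because its Nos1 lay above them. With the same library left out, 17.9% of 17432 genes had no overlap in either direction, but it was not chosen by their values. The log2 fold change of Nos1 was then -0.28 and the adjusted p 0.0247 (edgeR), where 9.08% of genes were called. This p rests on the same choice and is given as a description. Nos1 in SHR male 4 was 1.31-fold the mean of the other SHR males on the log2 scale, and 7.35% of genes were at least as far above in that library. Its 10 most abundant genes took 8.96% of counts, against 10.4% to 11.3% in the other SHR males. The part of these library differences in the result was not tested.

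In females the mean of Nos1 was higher in SHR, with the SHR animal higher in 22 of 25 pairs. The log2 fold change was 0.33 (SE 0.17, 95% interval -0.03 to 0.69), or 1.26-fold. The unadjusted p was 0.0684 and the adjusted p 0.332 (edgeR, Benjamini-Hochberg), so it did not pass the threshold, where 2.32% of 17404 genes tested were called. The exact permutation test over 252 splits gave p = 0.0317, and 0.0952 after adjustment over the 6 pairs of groups; the smallest p it can give is 0.00794.

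The size of the female difference rested on Wistar female 1. Without it the log2 fold change was 0.18 (SE 0.08), with an unadjusted p of 0.0374 and an adjusted p of 0.306 (edgeR). The exact permutation p was 0.0635, with the SHR animal higher in 17 of 20 pairs. Wistar female 1 was singled out by its Nos1 level, so these values are a description. Nos1 in Wistar female 1 was 2.00-fold below the mean of the other Wistar females on the log2 scale, and 4.39% of 17432 genes were at least as far below in that library. Its 10 most abundant genes took 12.2% of counts, against 7.54% to 10.9% in the other Wistar females. The part of this library's composition in the result was not tested.

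**Figure D2:**
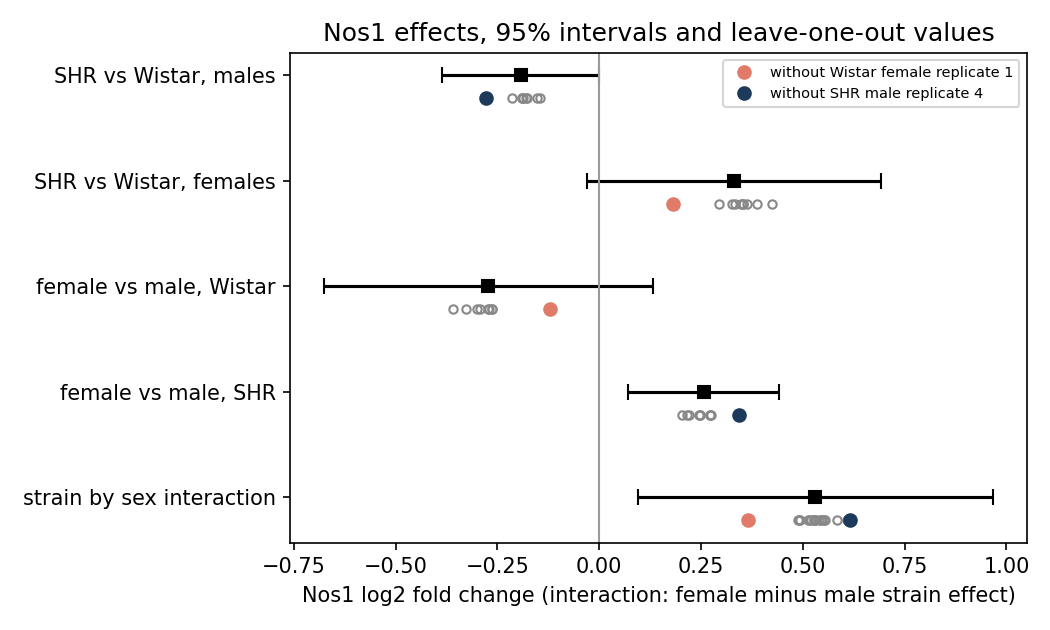
Log2 fold changes of Nos1 on the x axis for the comparisons named on the y axis. Squares with bars are edgeR estimates with 95% intervals over all libraries of the comparison, and circles are the same estimate with 1 library left out. The strain effect is -0.19 in males and 0.33 in females, and the filled circles show the fits without Wistar female 1 and without SHR male 4.

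The strain effects in males and females thus had opposite signs, and the interaction of strain and sex is the test of their difference. It was 0.53 on the log2 scale (SE 0.21, 95% interval 0.09 to 0.97) in a fit of all 4 groups. The unadjusted p was 0.0198 and the adjusted p 0.324 (edgeR, Benjamini-Hochberg), so it did not pass the threshold over all genes. No gene did, since 0 of 17432 genes (0.0%) were called for the interaction with edgeR, while 2332 had an unadjusted p under 0.05 and DESeq2 called 48. Each fit that left out 1 library kept the sign, with estimates between 0.36 without Wistar female 1 and 0.62 without SHR male 4. Without Wistar female 1 the unadjusted p was 0.00713 and the adjusted p 0.438 (edgeR). Without SHR male 4 they were 0.00808 and 0.323 (edgeR). Both animals were singled out by their Nos1 level, so these values are a description. Among 17243 genes tested in both sexes, 21.0% had, like Nos1, a lower estimate in SHR males and a higher estimate in SHR females, whatever their size or test.

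**Figure D3:**
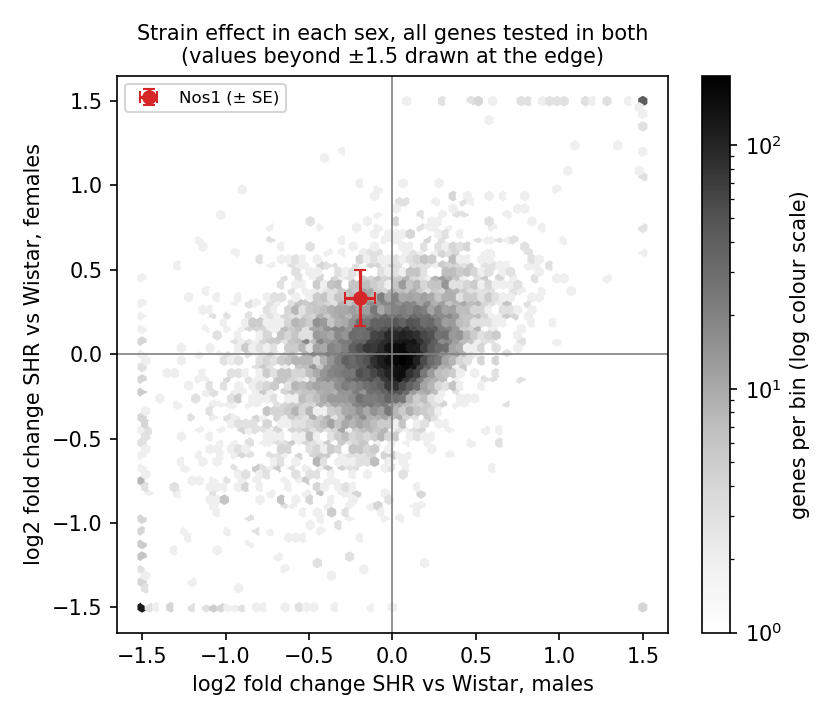
Log2 fold change of SHR against Wistar in males (x axis) and in females (y axis) for the 17243 genes tested in both, as a density of genes on a log colour scale. Nos1 (red, ± SE) lies at -0.19 in males and 0.33 in females, in the upper left quadrant together with 21.0% of genes.

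Within the strains, the estimates for females against males had opposite signs as well, and neither passed the threshold. In SHR, Nos1 had a higher mean in females, with a log2 fold change of 0.26 (SE 0.09, 95% interval 0.07 to 0.44) and the female higher in 22 of 25 pairs. The unadjusted p was 0.0106 and the adjusted p 0.222 (edgeR, Benjamini-Hochberg), in a comparison where 0.0694% of 17285 genes were called. The exact permutation p was 0.0317, or 0.0952 over the 6 pairs of groups. The size of this difference also depended on SHR male 4. Without it the log2 fold change was 0.34 and the adjusted p 0.141 (edgeR), with the female higher in 20 of 20 pairs. That animal was singled out by its Nos1 level, so these values are a description. This comparison and the strain comparisons share libraries, so their values are not independent.

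In Wistar, the mean was lower in females, with a log2 fold change of -0.27 (SE 0.18, 95% interval -0.68 to 0.13) and the female higher in 4 of 20 pairs. The adjusted p was 0.909 (edgeR, Benjamini-Hochberg), where 0.0629% of 17490 genes were called, and the exact permutation p was 0.0952, or 0.143 over the 6 pairs of groups. Without Wistar female 1 the estimate was -0.12.

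The observed spread of Nos1 between animals varied among the groups, and no test compared all 4 groups. The coefficient of variation of Nos1 was 3.05% in Wistar males, 6.56% in SHR females, 14.1% in SHR males and 26.6% in Wistar females. Counting error alone would give 2.12%, 2.13%, 2.33% and 2.58% in the same order, or 3.00%, 3.02%, 3.29% and 3.64% if pairs were counted. The observed value was above both in each group, by least in Wistar males, with no test of the difference. Without Wistar female 1 the coefficient in Wistar females was 9.38%, and without SHR male 4 that in SHR males was 6.93%.

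Set beside all genes, the SD of log2 CPM of Nos1 was larger than that of 5.72% of genes in Wistar males, 24.7% in SHR females, 64.9% in SHR males and 79.9% in Wistar females. The biological coefficient of variation that edgeR fitted for Nos1 was 0.0783, 0.0914, 0.111 and 0.243 in these groups. EdgeR draws this value toward the trend over genes of like abundance, so it is neither the measured spread nor independent of that trend. The trend at the abundance of Nos1 was 0.0985, 0.111, 0.0899 and 0.156. Nos1 was thus below the trend in Wistar males and SHR females and above it in SHR males and Wistar females.

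Whether inbred SHR and outbred Wistar animals differed in this spread was tested on the absolute deviation of log2 CPM from the group median. The deviation averaged 0.10 in SHR and 0.15 in Wistar. A permutation test over all 31752 relabellings of these deviations by strain within sex gave a two-sided p = 0.765. The deviations were taken once from the observed group medians, so this p is approximate. The difference, SHR minus Wistar, was -0.0543, and it reversed to 0.0318 without Wistar female 1. The strains were ordered differently in each sex. In males the deviation averaged 0.13 in SHR and 0.03 in Wistar (permutation p = 0.214, by the same method). In females it averaged 0.06 in SHR and 0.27 in Wistar (permutation p = 0.270).

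To see what moved with Nos1 inside the groups, the group mean was subtracted and the 19 libraries were related to 4 library measures, with labels permuted within groups. The relation to the first principal component of all other genes, which held 20.0% of their within-group variance, had Pearson's r = 0.658 (permutation p = 0.0593, adjusted p = 0.214 over the 4 relations; Spearman's rho = 0.368, permutation p = 0.157). It rests on the extreme libraries, since r was 0.0409 without the 2 libraries farthest from the median of the component and 0.205 without Wistar female 1. The share of counts in the most abundant gene had r = -0.541 (permutation p = 0.107, adjusted p = 0.214; rho = -0.446, permutation p = 0.0663) and -0.487 without the 2 farthest libraries, or -0.371 without Wistar female 1.

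Depth and the replicate number showed weaker relations. For log2 total counts r was -0.083 (permutation p = 0.620, adjusted p = 0.620; rho = 0.137, permutation p = 0.576), and 0.075 without the 2 farthest libraries. For the replicate number r was 0.313 (permutation p = 0.278, adjusted p = 0.370; rho = 0.188, permutation p = 0.479), and it lay between -0.156 and 0.483 over the 15 ways to leave out 2 of the tied farthest libraries. Without Wistar female 1 it was -0.0393, and that for total counts -0.139. None of the 4 relations passed a threshold of 0.05, before or after adjustment.

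**Figure D4:**
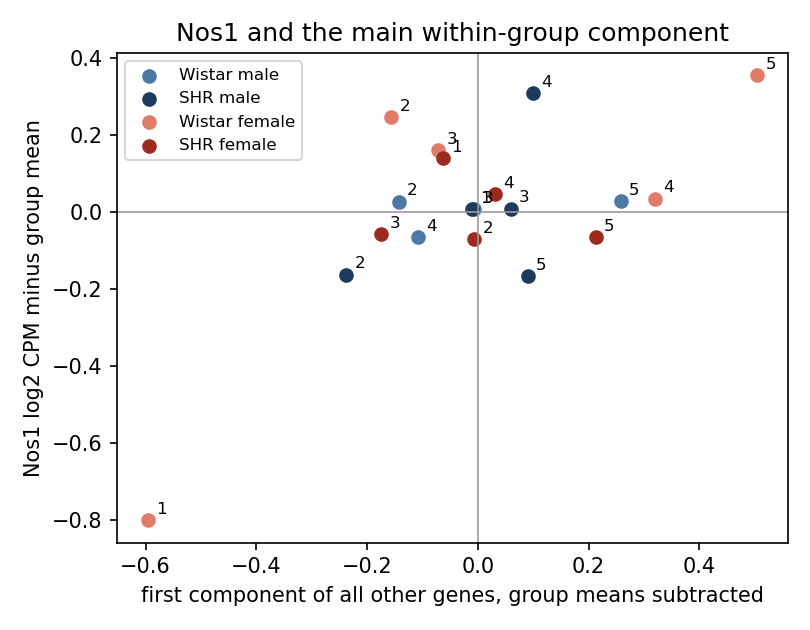
Nos1 log2 CPM minus its group mean (y axis) against the first component of all other genes with group means subtracted (x axis, no unit) in 19 animals, labelled with their replicate numbers. Wistar female 1 lies at -0.80 on the y axis and -0.60 on the x axis, apart from the other animals, and r falls from 0.658 to 0.205 without it.

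The genes whose pattern was most like that of Nos1 were ranked by Pearson's r of log2 CPM over the 19 libraries, as a description. The highest was ENSRNOG00000021904, with r = 0.91 and Spearman's rho = 0.85, and the lowest was ENSRNOG00000010038, with r = -0.88 and rho = -0.65. With group means subtracted, the highest was ENSRNOG00000007970 (r = 0.93, rho = 0.82) and the lowest ENSRNOG00000032703 (r = -0.91, rho = -0.74). Of 17431 genes, 115 had an r beyond 0.8 in either direction as measured and 175 with group means subtracted. These likenesses also rest on Wistar female 1, without which 1 and 3 genes lay beyond 0.8 and none of the 5 genes with the highest r in either ranking stayed among its first 5.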

How the data were processed

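Reads of strand-specific polyadenylated RNA libraries were trimmed with Trimmomatic, aligned to Rn7 with STAR and counted with featureCounts by the authors, and the deposited values are raw counts per gene and animal. The featureCounts settings and the annotation release are not given in the sources used here. From these counts, genes with a mean above 5 median-of-ratios normalized counts were fitted with edgeR 4.0.16 in R 4.3.3 (quasi-likelihood test, TMM, Benjamini-Hochberg adjustment over all genes tested, threshold 0.05), using only the groups compared, or all 4 groups for the interaction. DESeq2 1.42.0 served for size factors and as an alternative. The edgeR fit of the strains within each sex was tested on simulated counts, with changes larger than those of Nos1. The other steps were not tested in this way. Levels and log2 CPM (prior count 2) use TMM factors over all 19 libraries. Exact permutation tests of pairs of groups took log2 CPM, and the test of spread permuted absolute deviations from the group medians. The relations were tested with 100000 resamples. These tests used Python 3.11.15 and scipy 1.17.1. Poisson intervals have a level of 95%.

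Nos1, its lists and its tests were chosen with earlier results of these data known. The gene lists of the nitric oxide pathway and of cell type markers, and the symbols of genes most like Nos1, were not analysed here, since no table used here pairs the identifiers with symbols, so the first gene at each end of each ranking is given by identifier. The first component and the share of the most abundant gene, the spread in each sex, the 6 pairs of groups and the attention to Wistar female 1 and SHR male 4 were chosen after the values were seen. Libraries with different numbers were taken as separate animals.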

Additional observations from a re-analysis of the deposited data

How the results depend on the processing

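The 5 Nos1 effects had 101 alternatives (other tool, scaling, filter, adjustment, counts divided by 2, all groups in 1 fit, the replicate number, or 1 library left out). The Bonferroni adjustment reused the main fit of each effect, so its outcome was fixed once the Benjamini-Hochberg adjustment had not passed. Of the 101 alternatives, 100 kept both the sign and the side of the threshold. The exception was the male strain effect without SHR male 4 (adjusted p = 0.0247, edgeR); over the fits that left out 1 library this log2 fold change lay between -0.28 and -0.14. Scaling by total counts, chosen after seeing the data, gave -0.25 in males and 0.34 in females. With the replicate block the strain effects were -0.20 in males (adjusted p = 0.198, edgeR) and 0.37 in females (adjusted p = 0.285), and the interaction 0.51 (adjusted p = 0.283), while the number of interaction genes called went from 0 to 32. The sex effect in Wistar went from -0.27 to -0.12 with the block, in which Wistar female 1 has no male of its number and carries no weight. The deviations of same-numbered libraries from their group means correlated above 0.1 in 4 of 18 pairs (range -0.21 to 0.39). The main fits did not take the numbers to pair animals, but these correlations cannot decide whether same-numbered libraries share something. A library correlated best with its own number in 23 of 54 comparisons with another group, against 11.4 if numbers were unrelated, and the highest pairs, 0.353 and 0.386, were both of replicate 5. What same-numbered libraries share was not tested. The difference in spread between the strains, -0.0543 on the log2 scale, reversed to 0.0318 without Wistar female 1 and lay between -0.0885 and 0.0318 over libraries left out. Of the 5 genes most like Nos1, 1 stayed among the first 5 by Spearman's rho in each ranking and 5 with DESeq2 size factors. Counts of all genes called moved more: with the Bonferroni adjustment 87 genes were called between the male strains (2102 with Benjamini-Hochberg) and 40 between the female strains (403), DESeq2 called 1099 in females, all groups in 1 fit 1104, and fits without 1 library 174 to 811. For the sex effects DESeq2 called 20 genes in Wistar (11 with edgeR) and 303 in SHR (12). Scaling Nos1 to the neuron markers and the counts over the nitric oxide list were not run, for want of symbols. With 4 or 5 animals a group, the 95% interval of the strain effect reached from 0.765-fold to 0.9997-fold in males and from 0.980-fold to 1.62-fold in females.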
